A study of Mus musculus with 4 samples.

Results

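The transcripts described here encode 9 secreted cytokines by which lymphocytes act on other cells: Ifng, Tnf, Lta, Il2, Il21, Il10, Il17a, Il17f and Il22. They were taken by gene symbol from the mouse features of the count tables and are 9 of 31053 mouse genes, of which 20324 had at least 1 UMI (unique molecular identifier, 1 captured transcript) in a called cell. All 9 had at least 1 UMI. Il22 had 1 UMI in all and was seen in 1 of the 4 samples, and the other 8 were seen in every sample.

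The 4 samples are mammary tumours grown for 14 days from H605 cells, a HER2-positive mouse mammary tumour line, placed in the mammary pad of FVB/NJ hosts. In 2 the host was wild type (WT), and in 2 the host lacked Il1a (Il1a-/-). The mice were 6 to 8 weeks old, no other treatment is named, and the transplanted line was the same in both groups, so that the deletion was carried by the host alone and the tumour cells kept their own Il1a. Single cells were profiled by the 10x Genomics 3' v3.1 method, from live-enriched cells of the digested tumours. The labels do not say how the deletion was made or whether a sample pools several tumours, so p-values measure the spread between these samples.

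Interferon gamma, the product of Ifng, is the main macrophage-activating cytokine of CD8 T cells, T helper cells of the first type and natural killer (NK) cells, and raises antigen presentation in the cells that receive it. TNF and lymphotoxin alpha, the product of Lta, are related ligands made from neighbouring genes: both bind the TNF receptors as trimers, and lymphotoxin alpha also pairs with the Ltb product to bind the lymphotoxin beta receptor, which shapes lymphoid tissue. IL-2 and IL-21 signal through receptors that share a common gamma chain: IL-2 drives the growth of T cells and the survival of regulatory T cells, and IL-21, a product of follicular and other helper T cells, acts on B cells, CD8 T cells and NK cells. IL-10 dampens phagocytes and antigen presentation and is made by regulatory T cells, other T cells and macrophages. IL-17A, IL-17F and IL-22 are made by gamma-delta T cells, T helper cells of the IL-17 type and innate lymphocytes, and act on epithelium and fibroblasts, where IL-17 draws in neutrophils.

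Lymphocytes were the largest class in these tumours: 9462 of 14078 called cells fell in clusters that carried the markers of T and NK cells (T/NK-like), with 2262 and 2360 of them from WT replicates 1 and 2 and 2475 and 2365 from Il1a-/- replicates 1 and 2. In what follows, a pair of values for a host is in the order of its replicates. Libraries differed in depth, from 6705368 to 29001333 UMIs, and the median T/NK-like cell had 2822 and 4050 UMIs in WT replicates 1 and 2 but 1238 and 2684 in Il1a-/- replicates 1 and 2. Il1a itself had 65 and 109 UMIs in WT libraries and 1 and 0 in Il1a-/- libraries, the direction the labels give. Pairs of libraries shared 0 to 5 barcodes. Levels are given as CPM, the UMIs of a gene per 1000000 UMIs of the same cells in the same sample. The 3' method counts each transcript by 1 end, so that CPM needs no correction for length. Tests used the summed UMIs of each sample (n = 2 per group), and an adjusted p is the Benjamini-Hochberg value over all genes of that fit.

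The T/NK-like cells were divided by the transcripts of single cells. CD8-gated cells had a CD3 transcript and Cd8a or Cd8b1, Cd4-gated cells had a CD3 transcript and Cd4 but no Foxp3, Foxp3-gated cells had a CD3 transcript and Foxp3, gamma-delta-gated cells had a CD3 transcript and Trdc, and NK/ILC1-gated cells had Ncr1 or Klrb1c and no CD3 transcript. The CD8, Cd4 and Foxp3 gates exclude Trdc and each other's markers, except that Foxp3-gated cells may have Cd4. The gamma-delta and NK/ILC1 gates exclude Cd4, Foxp3 and Cd8b1 but not Cd8a. No gate with a CD3 transcript excludes Ncr1 or Klrb1c, and the NK/ILC1 gate does not exclude Trdc. Gates can therefore draw on the same clusters, and they are named for transcripts, not for sorted types. A gate takes fewer cells in a shallow library, because a cell with 1 copy of a marker is then missed more often.

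Promoter sequence is shown for the genes whose levels carry the results: Ifng, which was the most abundant, Tnf and Lta, which lie 1.157 kb apart on the same strand, and Il21, the cytokine that differed between hosts over all T/NK-like cells. Each run is the 250 bases before the start of the gene in RefSeq (GRCm38.p6), written 5′ to 3′ on the gene's own strand. Capitals mark exact matches, on either strand, to the TATA box (TATAAA), the NFAT core (GGAAA) and the T-box half-site (TCACAC).
Ifng, chr10:118440796-118441045, plus strand: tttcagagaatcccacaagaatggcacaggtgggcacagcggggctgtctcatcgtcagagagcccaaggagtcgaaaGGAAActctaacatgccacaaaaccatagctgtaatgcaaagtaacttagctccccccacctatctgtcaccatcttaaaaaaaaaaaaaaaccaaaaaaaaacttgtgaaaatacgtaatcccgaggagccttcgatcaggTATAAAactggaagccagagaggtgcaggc
Tnf, chr17:35202008-35202257, minus strand: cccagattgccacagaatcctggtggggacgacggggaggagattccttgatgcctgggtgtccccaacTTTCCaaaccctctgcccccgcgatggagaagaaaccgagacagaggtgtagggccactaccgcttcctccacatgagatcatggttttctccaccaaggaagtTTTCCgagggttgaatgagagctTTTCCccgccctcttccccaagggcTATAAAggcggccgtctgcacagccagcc
Lta, chr17:35205352-35205601, minus strand: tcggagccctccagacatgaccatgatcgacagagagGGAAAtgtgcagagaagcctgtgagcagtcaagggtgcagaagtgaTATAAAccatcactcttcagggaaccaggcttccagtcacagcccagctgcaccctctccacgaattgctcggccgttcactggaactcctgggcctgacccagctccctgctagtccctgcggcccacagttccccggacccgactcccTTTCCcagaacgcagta
Il21, chr3:37232637-37232886, minus strand: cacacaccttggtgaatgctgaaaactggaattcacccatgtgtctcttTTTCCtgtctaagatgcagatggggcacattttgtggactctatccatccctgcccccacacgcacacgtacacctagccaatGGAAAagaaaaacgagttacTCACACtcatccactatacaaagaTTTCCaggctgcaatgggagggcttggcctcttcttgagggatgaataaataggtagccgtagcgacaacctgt

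Ifng and Tnf carry the TATA box at -30 to -25 and -29 to -24 before the start, whereas in Lta it lies at -167 to -162 and in Il21 there is none in this window. The NFAT core, the contact point of the calcium-dependent factors that turn on cytokine genes after T cell receptor signals, occurs once in Ifng, 3 times in Tnf, 2 times in Lta and 3 times in Il21. It is a short motif that can overlap others, and 55.6% of 32851 mouse promoter windows of this length hold it. TATAAA is in 12.4% of them and TCACAC, present in Il21 at -98 to -93, in 12.3%. An AP-1 site (TGANTCA, in 6.75% of windows) was found among the matched members only in Il17a, at -244 to -238, and the consensus NF-kB motif, in 0.356% of windows, in none. The RefSeq table held 8 of the 9 genes, all but Il10. Such matches describe letters and not bound sites.

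In the mm10 annotation (GENCODE vM21) Il10 spans chr1:131019845-131024974, Il17a chr1:20730905-20734496, Il2 chr3:37120523-37125959 and Il22 chr10:118204942-118210047. Several members are neighbours. Tnf and Lta sit on chromosome 17 with Ltb 3.06 kb beyond Tnf on the opposite strand, Il2 and Il21 lie 96.8 kb apart on chromosome 3, Il17a and Il17f 42.6 kb apart on chromosome 1, and Ifng and Il22 231 kb apart on chromosome 10. Il22 has a near-identical copy, Iltifb, which had 0 UMIs, so that its count is uncertain. The 3' end of Il2 overlaps Adad1 on the other strand.

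Ifng was the leading cytokine transcript, with 4107 UMIs in 1291 cells, and 99.4% of its UMIs lay in T/NK-like cells. Lta had 1072 UMIs, 98.0% in T/NK-like cells, and Tnf 1026 UMIs, of which 75.0% were in T/NK-like cells and the rest largely in phagocytes. Il10 followed with 756 UMIs, 92.6% in T/NK-like cells. Il2 had 329 UMIs, 72.3% in T/NK-like cells. Il17a had 167, Il21 49, Il17f 35 and Il22 1. Summed over the 4 samples, CD8-gated cells held 46.2% of the Ifng UMIs of T/NK-like cells, Cd4-gated cells 49.1% of Il10 and 55.3% of Il21, and gamma-delta-gated cells 68.3% of Il17a. These sums are weighted by the samples with most UMIs, and the shares differed between samples. For Ifng the CD8-gated share was 6.09% and 48.1% in WT and 54.9% and 59.98% in Il1a-/-, and in WT replicate 1 NK/ILC1-gated cells held 47.3%. For Il10 the Cd4-gated share was 16.6% and 55.03% in WT and 19.2% and 70.1% in Il1a-/-, and in WT replicate 1 Foxp3-gated cells held 43.9%.

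Of the 9 members, 7 passed the filter on low counts in T/NK-like cells, and 1 of them, Il21, passed the test between hosts (higher in Il1a-/-). In that fit 5.21% of 11084 genes passed, 3.14% higher and 2.07% lower in Il1a-/-. These are 577 genes, and their number rested on the WT samples: 31 passed without WT replicate 1 and 106 without WT replicate 2, against 756 and 1254 without Il1a-/- replicate 1 and replicate 2 and 1836 with the replicate number as a block. At an unadjusted p under 0.05, 4 members were called, against 2751 of 11084 genes. DESeq2, the other tool, called 0 members and 605 of 11084 genes. The replicate samples of WT differed in Ifng and Lta by more than the hosts did, as the plot of the levels shows.

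**Figure D1:**
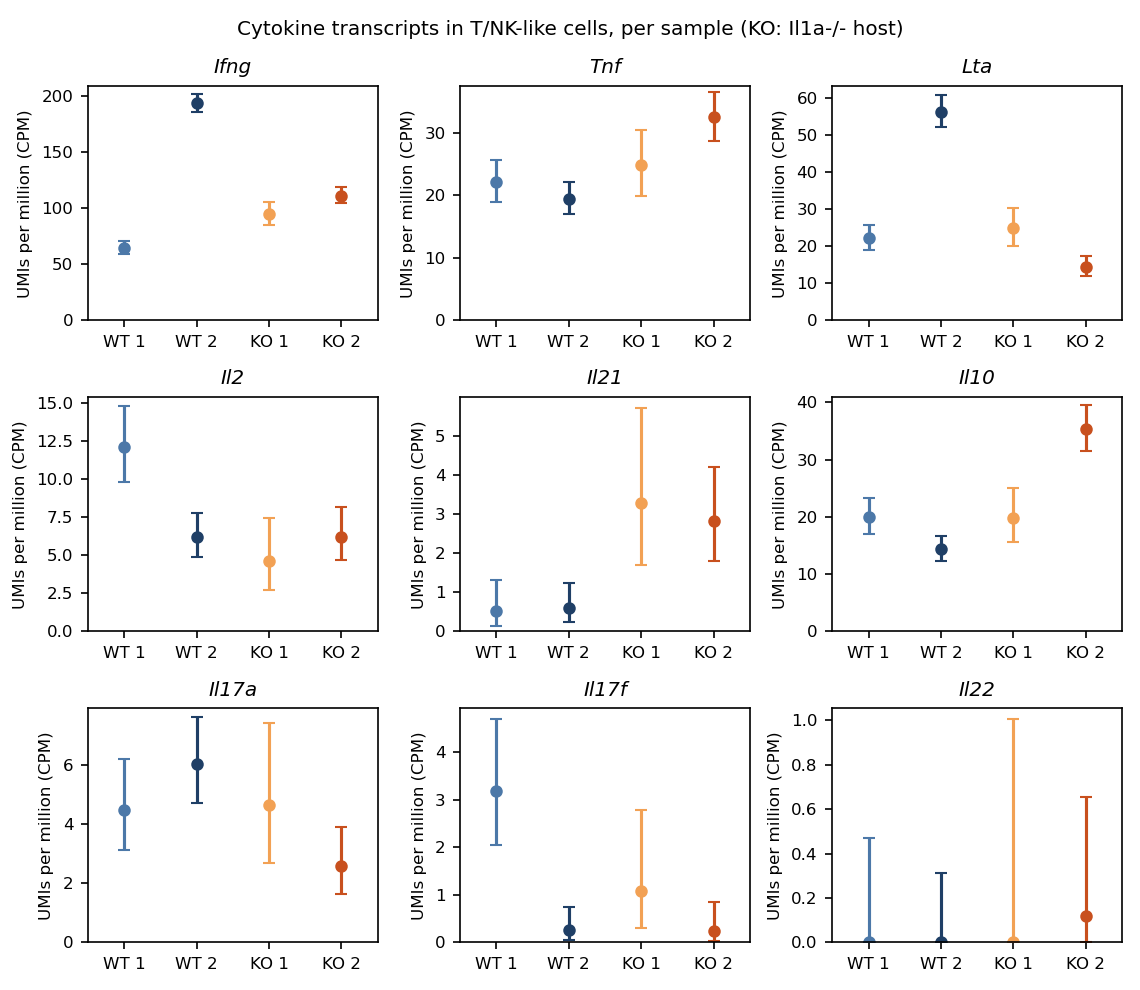
Level of each cytokine in T/NK-like cells of the 4 samples, in CPM of those cells (y axis from 0, its own scale in each panel). WT 1 and WT 2 are wild-type hosts and KO 1 and KO 2 Il1a-/- hosts, and the bars are exact Poisson 95% intervals, which cover counting error only. Ifng reached 194 CPM in WT 2 and 64.8 CPM in WT 1 with the Il1a-/- samples between them, and Il21 was near 0.5 CPM in both WT samples and near 3 CPM in both Il1a-/- samples.

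Ifng levels in T/NK-like cells were 64.8 and 194 CPM in WT replicates 1 and 2 and 94.8 and 111 CPM in Il1a-/- replicates 1 and 2. Both Il1a-/- values lay between the WT values, which differed from each other by more than the groups did. The log2 difference (Il1a-/- minus WT) was -0.31 (SE 0.43, adjusted p = 0.691) and turned to 0.73 without WT replicate 2. Most of the Ifng of that library came from a few cells: 35 cells with at least 10 Ifng UMIs each held 70.8% of its Ifng UMIs, against 4 cells and 10.4% in WT replicate 1, no such cell in Il1a-/- replicate 1 and 10 cells with 14.7% in Il1a-/- replicate 2. A limit of 10 UMIs is reached less often in a shallow library.

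The 3 richest cells, all in WT replicate 2, held 238, 231 and 194 Ifng UMIs. The first pair were CD8-gated and lay in cluster 5, whose leading genes include Il13, Il4 and Il5, and the third was Cd4-gated in cluster 10, led by histone genes of dividing cells. With the cells of 10 or more UMIs set aside, Ifng in T/NK-like cells was 58.3 and 58.6 CPM in WT and 94.8 and 96.9 CPM in Il1a-/-. These are descriptions with no test, since the cells were set aside by their Ifng value.

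**Figure D2:**
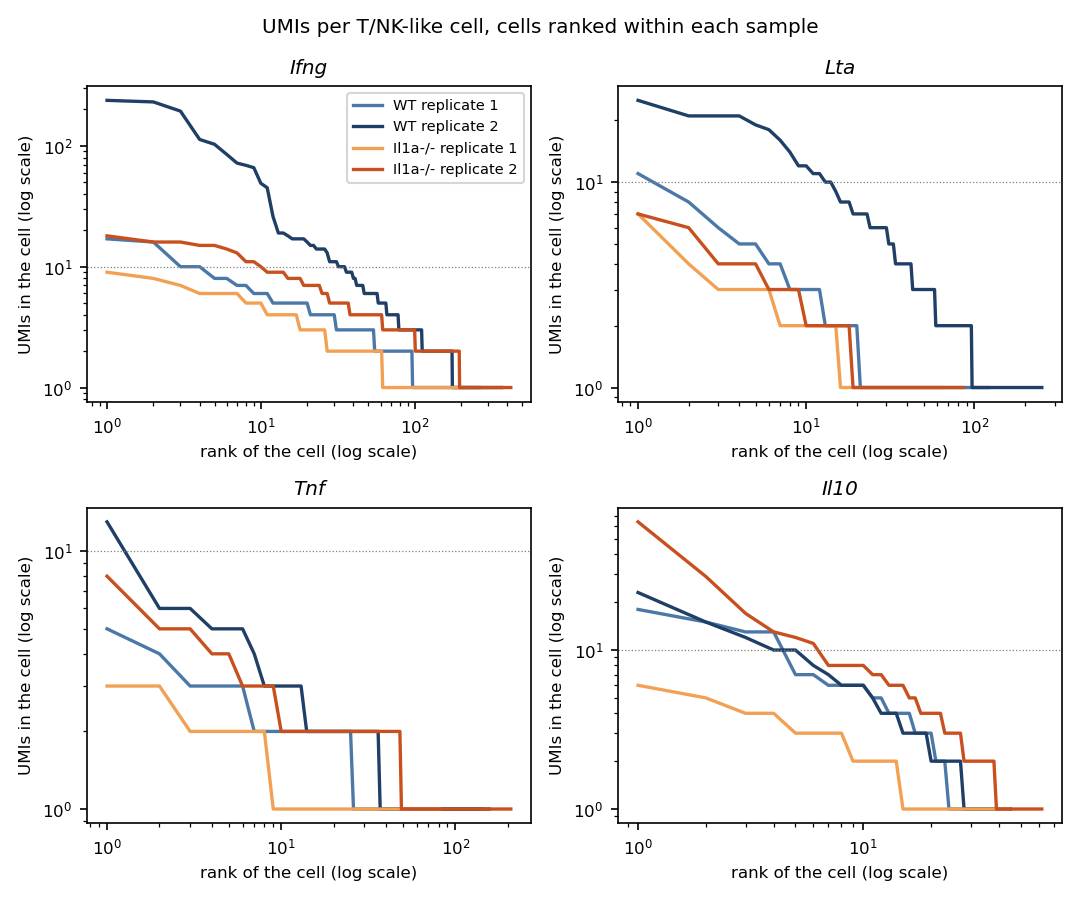
UMIs per T/NK-like cell for Ifng, Lta, Tnf and Il10, with the cells of each sample ranked from the richest (x axis, rank, log scale; y axis, UMIs in the cell, log scale; cells with no UMI are not drawn). The dotted line is 10 UMIs. For Ifng the WT replicate 2 line starts at 238 UMIs while the other 3 samples start at 9 to 18, and for Il10 the highest cell, with 64 UMIs, is in Il1a-/- replicate 2.

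The share of T/NK-like cells with an Ifng UMI is less sensitive to single rich cells. With every cell thinned to 1000 UMIs and shallower cells left out (79 and 76 cells in WT, 783 and 135 in Il1a-/-), it was 4.76% and 6.09% in WT and 6.62% and 8.03% in Il1a-/-. Before thinning it was 11.6% and 15.6% against 8.93% and 17.8%. Both thinned Il1a-/- values exceeded both WT values (5.42% ± 0.93 against 7.32% ± 1.00, SD, n = 2), and the exact two-sided permutation test over the 4 samples gave p = 0.33, the smallest it allows. Fibroblast-like cells, which should lack Ifng, had thinned shares of 0%, 0%, 0.391% and 0% in the same order. Before thinning they were the deeper cells, with median depths of 3151 to 10679 UMIs against 1238 to 4050 in T/NK-like cells.

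By gate, Ifng in CD8-gated cells was 60.1 and 862 CPM in WT and 116 and 139 CPM in Il1a-/-. WT replicate 2 alone stood far above the rest, with 16 cells holding 90.8% of its CD8-gated Ifng UMIs. The log2 difference was -1.94 (SE 0.77, adjusted p = 0.280) and became 1.02 (adjusted p = 0.495) without WT replicate 2. Without Il1a-/- replicate 1 or replicate 2 it was -1.81 (adjusted p = 2.75e-06) or -2.10 (adjusted p = 2.79e-08), past the threshold. In Cd4-gated cells Ifng was 49.0 and 250 CPM in WT and 176 and 151 CPM in Il1a-/-, with a log2 difference of 0.05 (SE 0.47, adjusted p = 0.971). Without WT replicate 2 the difference in Cd4-gated cells was 1.69 (adjusted p = 0.0025), which passed the threshold.

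NK/ILC1-gated cells had the steadiest Ifng, 88.3 and 72.7 CPM in WT against 67.5 and 73.1 CPM in Il1a-/- (log2 difference -0.20, SE 0.20, adjusted p = 0.536). Gamma-delta-gated cells had 62.0 and 95.3 CPM in WT and 23.7 and 49.1 CPM in Il1a-/-, where both Il1a-/- values lay below both WT values, as groups did not overlap for 50.8% of the genes tested there. That difference of -0.87 (SE 0.34) did not pass the test (adjusted p = 0.144) but did with the replicate number as a block (-1.01, adjusted p = 0.0265), without cycling cells (-2.12, adjusted p = 0.00153) and with more doublets removed (-1.97, adjusted p = 0.000348), and it turned to 0.59 with a gate of 2 UMIs. Foxp3-gated cells had Ifng at 7.47 and 50.03 CPM in WT and 0 and 5.79 CPM in Il1a-/-, from 57 WT UMIs and 1 Il1a-/- UMI, and Ifng did not pass the filter there. The 0 of Il1a-/- replicate 1 came from 26 cells, where the floor of 3 UMIs was 66.6 CPM. The leading gate differed between samples: Ifng was highest in NK/ILC1-gated cells in WT replicate 1, in CD8-gated cells in WT replicate 2 and in Cd4-gated cells in both Il1a-/- samples. Of these 5 gates it was lowest in Foxp3-gated cells in both WT samples and in Il1a-/- replicate 2. In Il1a-/- replicate 1 the lowest gate could not be told, since the Foxp3-gated floor lay above the 23.7 CPM of gamma-delta-gated cells. CD8-gated, Cd4-gated, gamma-delta-gated and NK/ILC1-gated cells overlapped within the spread of the samples.

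Whether the host effect on Ifng differed between gates was tested in 2 fits, 1 for each pair of gates. The effect in Cd4-gated cells minus that in CD8-gated cells was 1.69 (log2, SE 0.33, adjusted p = 0.0018), which was called in a fit where 2.25% of 8493 genes were. The difference was 0.63 (adjusted p = 0.842) without WT replicate 2 and 1.44 (adjusted p = 0.256) with the gates applied to all called cells. It was the 1 of 7 members tested that passed. Between NK/ILC1-gated and CD8-gated cells none of the 4 members tested passed, in a fit with 2.98% of 9104 genes called. Lta alone had an unadjusted p under 0.05 there (-2.59, adjusted p = 0.207), and DESeq2 was not run on this difference. Ifng there gave 1.19 (SE 0.83, adjusted p = 0.544), and -1.40 (adjusted p = 0.0234) without WT replicate 2.

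**Figure D3:**
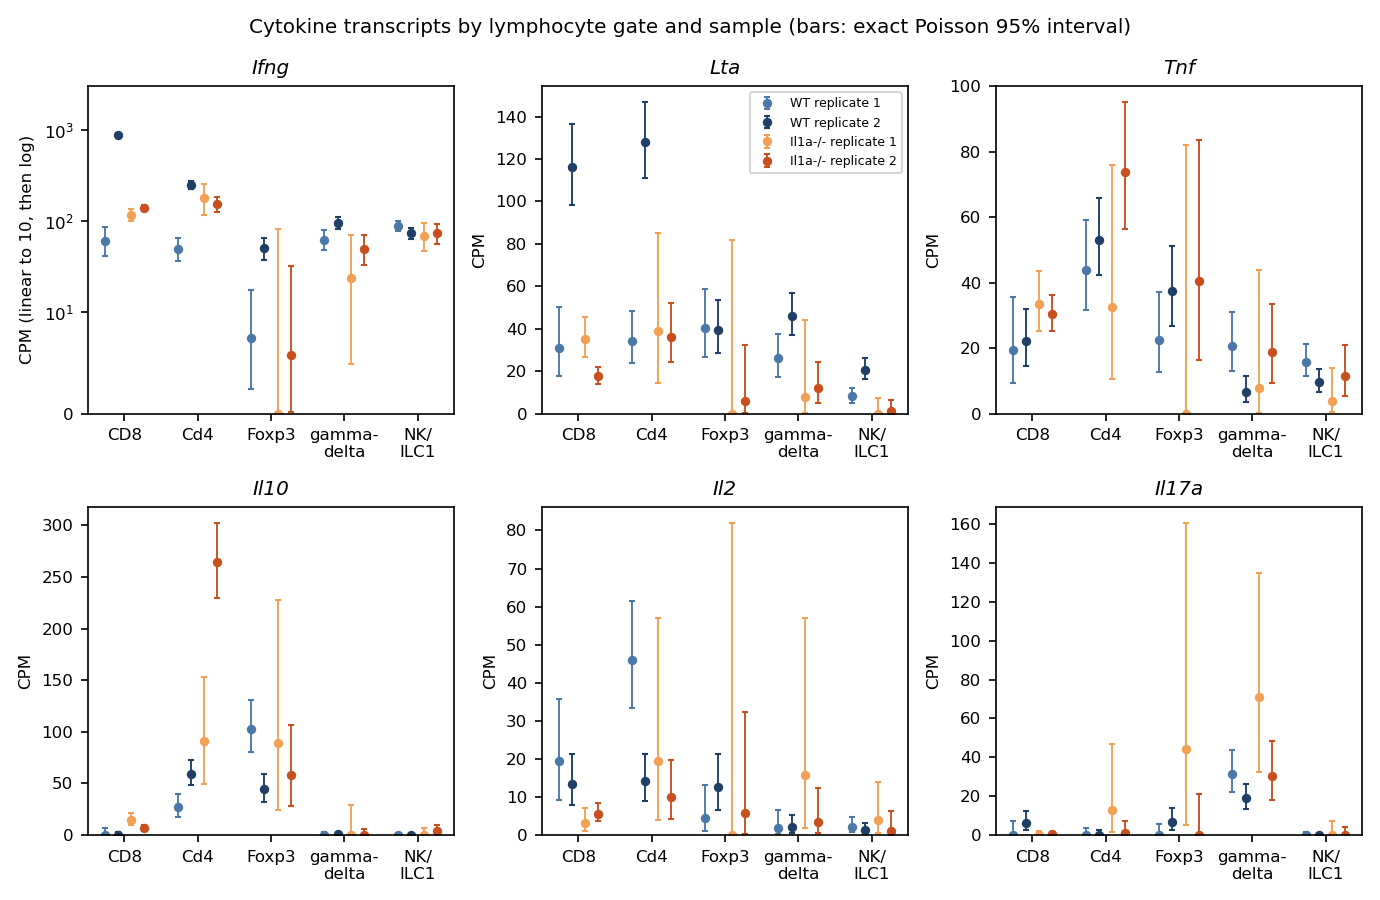
CPM of 6 cytokines in the 5 lymphocyte gates (x axis), with 1 point per sample and exact Poisson 95% intervals as bars (y axis linear, except Ifng, which is linear to 10 CPM and logarithmic above). Ifng and Lta of WT replicate 2 stand above the other samples in CD8-gated and Cd4-gated cells, Il10 of Il1a-/- replicate 2 reaches 264 CPM in Cd4-gated cells, and the wide bars of Il1a-/- replicate 1 come from its few UMIs.

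Tnf in T/NK-like cells was 22.1 and 19.5 CPM in WT and 24.8 and 32.4 CPM in Il1a-/-. Both Il1a-/- values were above both WT values, and the log2 difference of 0.52 (SE 0.19) did not pass the test (adjusted p = 0.151). Groups without overlap were common, at 56.7% of the genes tested in T/NK-like cells, 46.4% in CD8-gated, 50% in Cd4-gated and 58.8% in NK/ILC1-gated cells. Cd4-gated cells had 43.8 and 53.1 CPM in WT and 32.6 and 73.8 CPM in Il1a-/-, the highest of the gates except in Il1a-/- replicate 1. CD8-gated cells had 19.4 and 22.0 CPM in WT and 33.34 and 30.3 CPM in Il1a-/- (log2 difference 0.53, SE 0.31, adjusted p = 0.469). NK/ILC1-gated cells had 15.8 and 9.57 CPM in WT and 3.86 and 11.4 CPM in Il1a-/-, the lowest in WT replicate 1 and Il1a-/- replicate 2. In WT replicate 2 the lowest were gamma-delta-gated cells, with 20.7 and 6.66 CPM in WT and 7.89 and 18.6 CPM in Il1a-/-. Foxp3-gated cells had 22.4 and 37.5 CPM in WT and 0 and 40.5 CPM in Il1a-/-. That 0, in Il1a-/- replicate 1, has a floor of 66.6 CPM, above the level of each other gate there, so the lowest gate of that sample could not be told. Unlike Ifng, Tnf was spread thinly over cells, with 757 cells sharing 1026 UMIs and 13 UMIs at most in 1 cell.

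Tnf was also found in named classes outside the lymphocytes. Mononuclear phagocyte-like cells, macrophages and monocytes by their markers, had 19.7 and 9.16 CPM in WT and 74.3 and 23.1 CPM in Il1a-/-, from 38, 34, 26 and 40 UMIs. The log2 difference was 1.54 (SE 0.55, adjusted p = 0.275), in a fit where 0.156% of 8946 genes passed. Of the members, Tnf and Il10 passed the filter there and neither was called. Both had an unadjusted p under 0.05, as did 1252 of 8946 genes. DESeq2 called 0 members and 97 of 6518 genes. The fit with no filter on low counts called Tnf (adjusted p = 0.00065). This class joins cluster 6, whose leading genes include Arg1 and Msr1, and cluster 8, whose leading genes include Cd163 and Retnla. Cluster 8 held 163 of 396 and 382 of 701 cells of the class in WT, and 30 of 167 and 123 of 397 in Il1a-/-. The part of this mixture in the values of the class was not tested. Neutrophil-like cells had the highest Tnf level of any named class, 67.3 and 138 CPM in WT and 880 and 252 CPM in Il1a-/-, but these values rest on 3, 13, 4 and 3 UMIs in 33, 66, 6 and 9 cells.

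**Figure D4:**
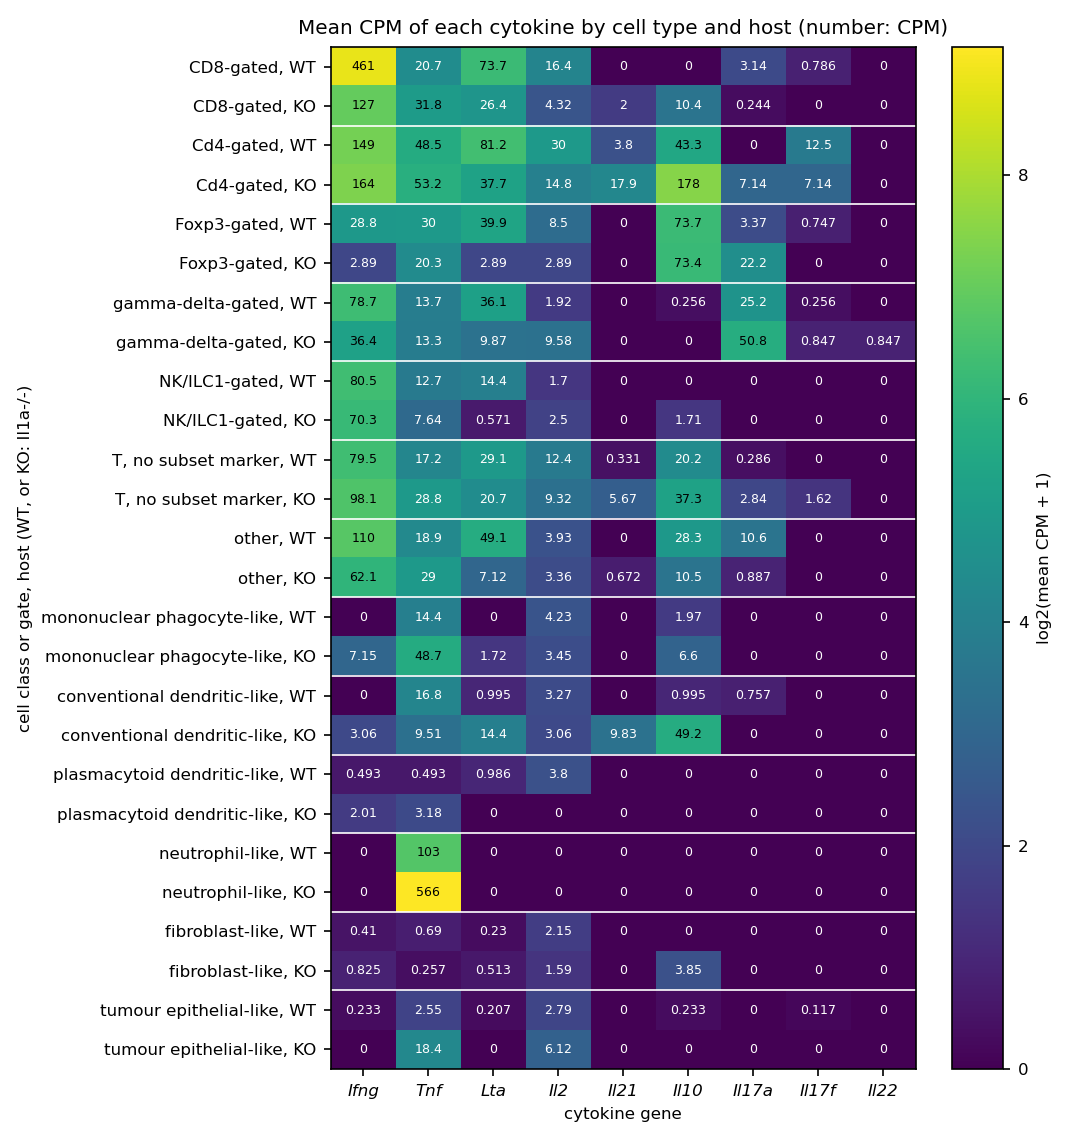
Mean CPM of the 2 samples of each host for every cytokine (x axis) in each lymphocyte gate and cell class (y axis), coloured by log2(mean CPM + 1) with the mean CPM printed in the cell. For tumour epithelial-like cells of Il1a-/- hosts the value is 1 sample, since replicate 2 had no such cell. Ifng, Lta, Il10 and Il21 are brightest in T cell gates, Tnf in neutrophil-like cells (103 CPM in WT and 566 CPM in Il1a-/-), and Il17a in gamma-delta-gated cells.

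Lta was lower in Il1a-/- hosts in 2 of the 5 gates by the test, NK/ILC1-gated and gamma-delta-gated cells. Over all T/NK-like cells it was 22.3 and 56.3 CPM in WT and 24.8 and 14.4 CPM in Il1a-/-, where the groups overlapped (log2 difference -1.05, SE 0.43, adjusted p = 0.182, and -0.17 without WT replicate 2). In NK/ILC1-gated cells Lta had 22 and 69 UMIs in WT and 0 and 1 UMIs in Il1a-/-, or 8.06 and 20.6 CPM against 0 and 1.14 CPM. Both WT libraries lay above both Il1a-/- libraries, and Lta fell there with a fitted log2 difference of -4.26 (SE 0.96, adjusted p = 0.00254). With 1 UMI in the Il1a-/- group, the ratio of the pooled rates was 20.9 with an exact 95% counting interval of 3.66 to 834. Lta was 1 of the 3 members that passed the filter in this gate. In the same fit 17.2% of 8905 genes passed the test. Of all genes tested, 9.1% were called higher and 8.07% lower in Il1a-/-.

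The call of Lta in NK/ILC1-gated cells held in 12 of 13 alternatives and was lost with the gate applied to all called cells (-4.11, adjusted p = 0.0633). DESeq2 gave it no adjusted p, and no value could be had without WT replicate 2. The cells of the gate were not the same mixture in both hosts. Cluster 3, led by Xcl1, Ncr1 and Eomes, made up 48.5% and 51.7% of the gate in WT and 7.73% and 0.291% in Il1a-/-, and held 19 of 22 and 50 of 69 Lta UMIs in WT. Its 33 cells and 1 cell in Il1a-/- had no Lta UMI, where the depth allowed up to 64.6 CPM in replicate 1. In cluster 2, led by Gzma, Cma1 and Itga2, which held 246 to 290 cells in every sample, Lta was 0 and 3 UMIs in WT and 0 and 1 in Il1a-/-. Cluster 4, whose leading genes include Tcrg-C4 and Trdc, also held gamma-delta-gated cells. In its NK/ILC1-gated cells Lta was 2 and 14 UMIs in 84 and 47 WT cells and 0 in 145 and 47 Il1a-/- cells. Summed markers of plasmacytoid dendritic cells, a list of 8 genes with none at 0 in all samples, also moved with the host in this gate, at 587 and 850 CPM in WT and 1119 and 1423 CPM in Il1a-/-. What part the make-up of the gate or those markers have in the Lta result was not tested.

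Gamma-delta-gated cells had Lta at 26.1 and 46.1 CPM in WT (29 and 90 UMIs) and at 7.89 and 11.9 CPM in Il1a-/- (1 and 7 UMIs). Both Il1a-/- samples were below both WT samples, and Lta fell by 1.74 on the log2 scale (SE 0.51, adjusted p = 0.0445), in a fit where 5.37% of 7295 genes passed and 1.51% were lower. It was 1 of the 4 members tested in this gate. The call held in 8 of 14 alternatives and was lost in each of the 4 fits that leave out a sample, where adjusted p ran from 0.0747 to 0.690, without cycling cells (-1.68, adjusted p = 0.0565) and with the gate applied to all called cells (-1.70, adjusted p = 0.074). Here too the mixture differed: cluster 3 made up 36.7% and 47.2% of the gate in WT and 4.26% and 0% in Il1a-/-. Within cluster 4, led by Trdc, Tcrg-C4 and Krt83 and present in all samples, Lta was 37.3 and 41.2 CPM in WT (11 and 11 UMIs) and 11.7 and 17.2 CPM in Il1a-/- (1 and 6 UMIs), so that the order was the same as in the whole gate. Summed phagocyte markers in this gate were 518 and 579 CPM in WT and 686 and 1006 CPM in Il1a-/-, and their part in the result was not tested.

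**Figure D5:**
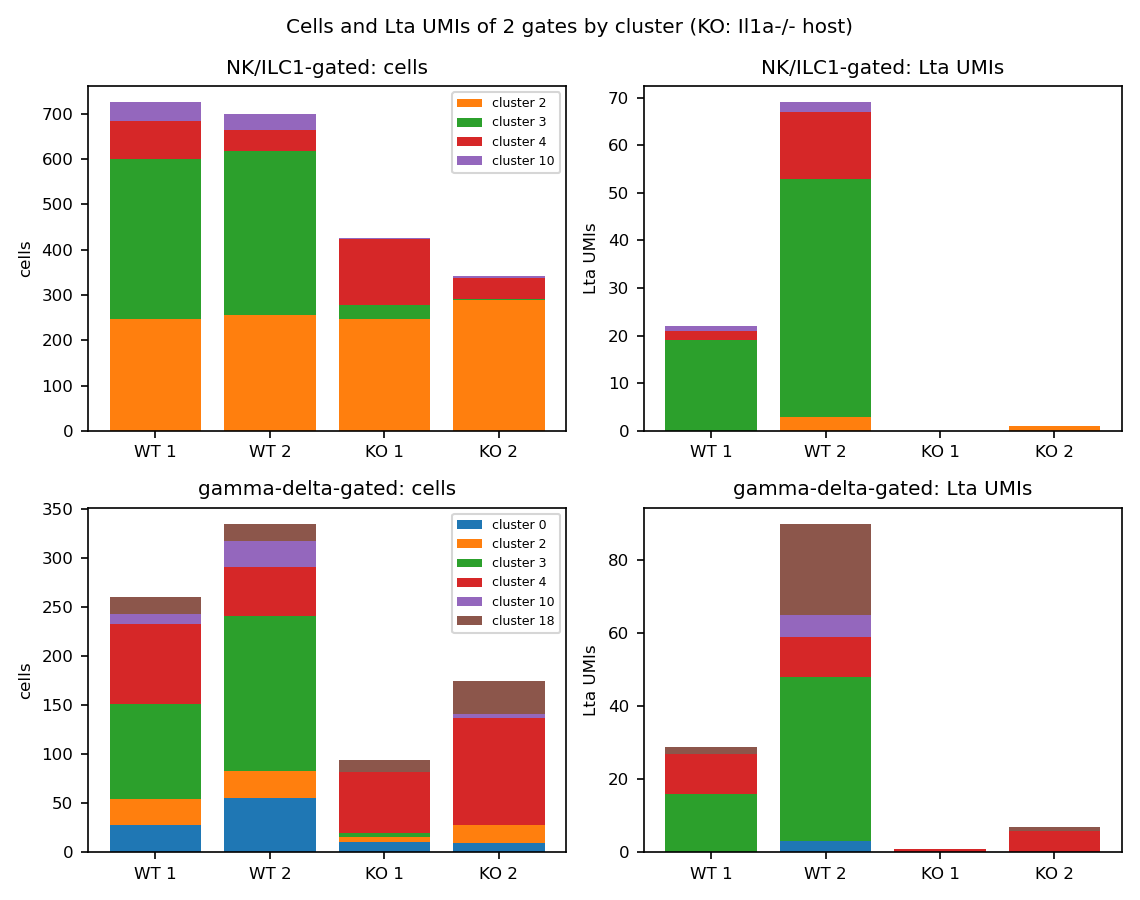
Number of cells (left) and of Lta UMIs (right) in NK/ILC1-gated (top) and gamma-delta-gated cells (bottom) of each sample, stacked by cluster with 1 colour per cluster. WT 1 and WT 2 are wild-type hosts and KO 1 and KO 2 Il1a-/- hosts, and clusters with few cells of a gate are not drawn. Cluster 3 holds 352 and 362 NK/ILC1-gated cells in WT, more than cluster 2 with 248 and 255, and 33 cells and 1 cell in Il1a-/-.

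In the other gates Lta did not pass. CD8-gated cells had 31.0 and 116 CPM in WT and 35.2 and 17.6 CPM in Il1a-/- (log2 difference -1.72, SE 0.49, adjusted p = 0.130). That difference was -0.35 (adjusted p = 0.889) without WT replicate 2, and it passed without Il1a-/- replicate 1 (-2.22, adjusted p = 4.23e-08) or replicate 2 (-1.26, adjusted p = 0.00838). Cd4-gated cells had 34.4 and 128 CPM in WT and 39.1 and 36.3 CPM in Il1a-/-, a difference of -1.19 (SE 0.49, adjusted p = 0.213) that passed with the replicate number as a block (-1.44, adjusted p = 0.0244) and turned to 0.10 without WT replicate 2. Foxp3-gated cells had 40.4 and 39.4 CPM in WT, from 27 and 41 UMIs, and 0 and 5.79 CPM in Il1a-/-, from 0 and 1 UMIs. Their log2 difference of -3.08 (SE 0.99) missed the threshold (adjusted p = 0.168), and the ratio of pooled rates was 8.67 with a counting interval of 1.504 to 347. Only 26 and 69 Foxp3-gated cells were found in the Il1a-/- samples.

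Lta and Tnf were compared with Ifng in the same cells. Of 1274 T/NK-like cells with an Ifng UMI, 12.5% also had a Tnf UMI, against 5.21% of the cells without Ifng, and 12.8% had an Lta UMI, against 4.41%. Cells with Ifng were deeper, with a median of 3526.5 UMIs against 2494.5 in all T/NK-like cells, and cells with both Ifng and Lta had a median of 6697. The part of depth in these shares was not tested.

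Il2 was a low transcript of Cd4-gated and CD8-gated cells. In CD8-gated cells it was 19.4 and 13.4 CPM in WT and 3.03 and 5.61 CPM in Il1a-/-, from 10, 17, 5 and 23 UMIs. Both WT values were above both Il1a-/- values, but the log2 difference of -1.77 (SE 0.48) did not pass (adjusted p = 0.104), and 11 of the 17 UMIs of WT replicate 2 came from 1 cell, the one with 238 Ifng UMIs. Without Il1a-/- replicate 2 it passed (-2.37, adjusted p = 0.0317). In Cd4-gated cells it was 45.9 and 14.1 CPM in WT and 19.5 and 10.0 CPM in Il1a-/- (log2 difference -1.22, SE 0.63, adjusted p = 0.325), where 25 of the 44 UMIs of WT replicate 1 were in 1 cell. Without WT replicate 2 it passed (-1.94, adjusted p = 0.0462). Over all T/NK-like cells it was 12.1 and 6.21 CPM against 4.63 and 6.22 CPM. Low Il2 counts were found in classes that do not make it, such as 2.86 to 4.31 CPM in phagocyte-like and 1.08 to 3.22 CPM in fibroblast-like cells, and levels of a few CPM in NK/ILC1-gated cells (1.14 to 3.86 CPM) are not above that background.

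None of the 4 members tested in CD8-gated cells (Ifng, Tnf, Lta and Il2) was called, where 1.76% of 8393 genes were. At an unadjusted p under 0.05 there were 3, Ifng, Lta and Il2, each lower in Il1a-/-, against 1196 of 8393 genes. DESeq2 called 0 members and 170 of 8393 genes. In Foxp3-gated cells 0 of 3 members tested were called, with 0.605% of 5286 genes called. At an unadjusted p under 0.05 there was 1, against 614 of 5286 genes. DESeq2 called 0 members and 7 of 4773 genes.

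Il21 was rare but higher in Il1a-/- hosts. T/NK-like cells held 4 and 7 Il21 UMIs in WT and 12 and 24 in Il1a-/-, although the Il1a-/- libraries were the shallower ones, which gave 0.509 and 0.595 CPM against 3.27 and 2.82 CPM. Both Il1a-/- samples were above both WT samples, in each pair of equal replicate number, and the log2 difference was 2.42 (SE 0.47, adjusted p = 0.033). The call held in 10 of 14 alternatives, with adjusted p from 0.00103 to 0.226. It was lost with DESeq2 (adjusted p = 0.0591) and without WT replicate 1 (0.184), WT replicate 2 (0.226) or Il1a-/- replicate 1 (0.0577), while the difference stayed between 2.31 and 2.57 in all of them. Thinned to 1000 UMIs per cell, Il21 did not pass the filter. The UMIs were in 4 and 6 WT cells and 7 and 15 Il1a-/- cells, with 5 UMIs at most in 1 cell.

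Cd4-gated cells held 26 of the 47 Il21 UMIs, and there the level was 3.13 and 4.48 CPM in WT and 19.5 and 16.3 CPM in Il1a-/- (3, 7, 3 and 13 UMIs). That log2 difference of 2.07 (SE 0.62) did not pass (adjusted p = 0.0768). CD8-gated cells had no Il21 UMI in either WT sample and 5 and 4 in the Il1a-/- samples, at least 1.07-fold higher against a floor of 3 UMIs over the WT group, and did not pass the filter. No Il21 UMI was found in Foxp3-gated, gamma-delta-gated or NK/ILC1-gated cells. Of the 32 cells with Il21, 40.6% had Ifng as well.

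Il10 rose in Cd4-gated cells of Il1a-/- hosts. Its level there was 27.1 and 59.5 CPM in WT (26 and 93 UMIs) and 91.2 and 264 CPM in Il1a-/- (14 and 211 UMIs). Both Il1a-/- samples were above both WT samples, with Il1a-/- replicate 2 far above the rest, and the log2 difference was 2.16 (SE 0.39, adjusted p = 0.0034) in a fit where 3.48% of 7379 genes passed and 2.52% were higher. Il10 was 1 of the 7 members tested in this gate, and 3 had an unadjusted p under 0.05, against 1315 of 7379 genes. The call held in 11 of 15 alternatives. It was lost with DESeq2 (2.05, adjusted p = 0.264), without WT replicate 1 (1.78, adjusted p = 0.401), without Il1a-/- replicate 2 (0.96, adjusted p = 0.459) and with the gate on all called cells (2.19, adjusted p = 0.0504).

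The Il10 of Il1a-/- replicate 2 came largely from 1 group of cells. Cluster 5, whose leading genes include Il13, Il4, Il5 and Il1rl1, held 204 of its 211 Cd4-gated Il10 UMIs, and 64 of them were in 1 cell. In cluster 5 cells of the gate Il10 was 25.6 and 76.3 CPM in WT and 17.99 and 403 CPM in Il1a-/-, so the groups overlapped within it, and Il1a-/- replicate 1 had 1 UMI in 34 such cells. The 14 Il10 UMIs of Il1a-/- replicate 1 were instead 6 in cluster 0, 4 in cluster 7, 3 in cluster 1 and 1 in cluster 5. With the cells of 10 or more Il10 UMIs set aside, Cd4-gated cells had 27.1 and 21.6 CPM in WT and 91.2 and 99.7 CPM in Il1a-/-, a description only, since the cells were set aside by their Il10 value.

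Foxp3-gated cells, the regulatory T cells by this transcript, had Il10 at 103 and 44.3 CPM in WT and 88.9 and 57.9 CPM in Il1a-/-, with the Il1a-/- values between the WT values (log2 difference -0.15, SE 0.52, adjusted p = 0.926). The Il1a-/- values rest on 4 UMIs in 26 cells and 10 UMIs in 69 cells. Their counting intervals were 24.2 to 227.5 CPM and 27.8 to 106 CPM, too wide to tell a change from none. The share of T/NK-like cells in this gate was smaller in Il1a-/- hosts, which is given with the other gates below. In CD8-gated cells Il10 had no UMI in 130 and 238 WT cells (a floor of 3 UMIs is 5.82 and 2.36 CPM) and 24 and 26 UMIs in 839 and 784 Il1a-/- cells. Against a floor of 3 UMIs over the WT group that is at least 5.18-fold higher per UMI. Il10 did not pass the filter there, and the fit with no filter gave an adjusted p of 8.05e-05. Of those 50 UMIs, 32 were in cluster 1, led by Ccl5, Cd8a, Pdcd1 and Lag3, which held 86 CD8-gated WT cells with no Il10 UMI. Free RNA in the Il1a-/- libraries was richer in Il10, at 13.4 and 26.1 CPM against 8.29 and 6.82 CPM in WT. Gamma-delta-gated cells had 1 Il10 UMI in all samples together and NK/ILC1-gated cells 3. Summed phagocyte markers in CD8-gated cells were 463 and 538 CPM in WT and 383 and 1113 CPM in Il1a-/-, and their part was not tested.

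Over all T/NK-like cells Il10 was 19.98 and 14.4 CPM in WT and 19.9 and 35.3 CPM in Il1a-/- (log2 difference 0.78, SE 0.28, adjusted p = 0.144). Without cycling cells it passed (1.36, adjusted p = 0.0311), as it did without Il1a-/- replicate 1 (1.12, adjusted p = 0.0128). Phagocyte-like cells had little, 2.59 and 1.35 CPM in WT and 5.72 and 7.49 CPM in Il1a-/- from 25 UMIs in all, with a log2 difference of 1.99 (adjusted p = 0.220).

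Il17a was a transcript of few cells: 167 UMIs in 38 cells, of which 4 cells held 53.3%. In gamma-delta-gated cells all of it lay in cluster 18, led by Cd163l1, Blk and Il17a itself. There were 35 and 37 UMIs in 5 and 4 WT cells and 9 and 18 UMIs in 3 and 11 Il1a-/- cells, and 1 cell in each WT sample held 25 UMIs. The level in the gate was 31.4 and 19.0 CPM in WT and 71.0 and 30.5 CPM in Il1a-/-. The groups overlapped (log2 difference 0.71, SE 0.41, adjusted p = 0.374). With the richest cell of every sample left out, which was added after seeing the data, the difference was 1.78 (adjusted p = 0.0438), and with a gate of 2 UMIs it was -0.31. Thinned to 1000 UMIs, 0.760% and 0.601% of WT and 2.94% and 2.91% of Il1a-/- gamma-delta-gated cells had an Il17a UMI, for which the exact two-sided permutation test gave p = 0.33, its smallest value. These shares rest on 2 and 2 WT cells and on 2 and 5 Il1a-/- cells. Cluster 18 made up 6.44% and 5.07% of the gate in WT and 12.8% and 19.3% in Il1a-/-, and its part in these values was not tested. Over all T/NK-like cells, in which gamma-delta-gated cells were fewer in Il1a-/-, Il17a was 4.45 and 6.04 CPM in WT and 4.63 and 2.58 CPM in Il1a-/- (log2 difference -0.62, SE 0.38, adjusted p = 0.338).

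Il17f, the close relative of Il17a, had 35 UMIs in 9 cells, and 24 of them lay in 1 Cd4-gated cell of WT replicate 1. In T/NK-like cells it had 25 and 3 UMIs in WT and 4 and 2 in Il1a-/-. Il22 had 1 UMI, in a gamma-delta-gated cell of Il1a-/- replicate 2 that also had Il17a. A count of 0 in the other samples allows up to 0.382 CPM in WT replicate 1, 0.255 CPM in WT replicate 2 and 0.817 CPM in Il1a-/- replicate 1, so that Il22 was not detectable at this depth rather than shown absent.

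The gates that carry these cytokines differed in size between the samples of the 2 hosts, and every value summed over T/NK-like cells mixes them. CD8-gated cells were 5.75% and 10.1% of T/NK-like cells in WT and 33.9% and 33.2% in Il1a-/-. NK/ILC1-gated cells were 32.1% and 29.7% in WT against 17.3% and 14.5%, gamma-delta-gated cells 11.7% and 14.2% against 3.80% and 7.44%, and Foxp3-gated cells 8.44% and 8.18% against 1.05% and 2.92%. Cd4-gated cells were 12.5% in both WT samples and 4.61% and 11.8% in Il1a-/-. In each of these gates both Il1a-/- values lay on the same side of both WT values, and each exact two-sided permutation test gave p = 0.33, the smallest that 6 assignments of 4 samples allow.

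The make-up of CD8-gated cells differed as well. Cluster 0, led by Ccr7, Lef1, Tcf7 and S1pr1, genes of naive and central memory T cells, made up 63.8% and 43.3% of the gate in WT and 5.24% and 8.29% in Il1a-/-, and cluster 1, led by Ccl5, Pdcd1, Lag3 and Havcr2, made up 12.3% and 29.4% in WT and 80.9% and 61.4% in Il1a-/-. Within cluster 1 Ifng was 151 and 177 CPM in WT and 99.1 and 164 CPM in Il1a-/-, and within cluster 0 it was 7.29 and 3.93 CPM in WT and 107 and 87.2 CPM in Il1a-/-, the last from 2, 2, 6 and 18 UMIs. In cluster 5 of the gate it was 206 and 3159 CPM in WT and 291 and 279 CPM in Il1a-/-. These values are descriptions, since the clusters were made from the same cells.

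The other genes of these pathways were read from lists. The list calls in T/NK-like cells depended on the WT samples: edgeR called 0 genes of these lists without WT replicate 1, and of the genes called with all samples it kept Il21r, Icos, Irf4 and Jun alone without WT replicate 2. The members act through receptors encoded by 15 genes, of which 11 were tested in T/NK-like cells, 2 were higher in Il1a-/- and 0 lower, with a median log2 difference of 0.14 against -0.02 over all genes tested. Il21r, the receptor of IL-21, was 66.8 and 73.1 CPM in WT and 183 and 162 CPM in Il1a-/- (log2 difference 1.33, SE 0.16, adjusted p = 0.0093), so that ligand and receptor transcripts were both higher in these cells. Ifngr1, the binding chain of the interferon gamma receptor, was 420 and 466 CPM in WT and 752 and 748 CPM in Il1a-/- (0.79, SE 0.17, adjusted p = 0.0392).

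Among 13 partners and relatives, 5 were tested, 2 were lower and 0 higher (median -0.89). Ltb, the membrane partner of lymphotoxin alpha, fell from 1252 and 1283 CPM in WT to 532 and 738 CPM in Il1a-/- (log2 difference -0.96, SE 0.21, adjusted p = 0.0406). Tnfsf14, also called LIGHT, a second ligand of the lymphotoxin beta receptor, was 13.5 and 14.4 CPM in WT and 5.72 and 5.52 CPM in Il1a-/- (-1.28, SE 0.23, adjusted p = 0.0248). The share of CD8-gated cells and of the naive-like cluster moved with these values.

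Of 12 receptors and costimulators that lead to cytokine production, 11 were tested, 2 were higher and 0 lower (median 0.33). Icos, the costimulatory receptor of helper T cells, was 194 and 173 CPM in WT and 677 and 528 CPM in Il1a-/- (log2 difference 1.75, SE 0.18, adjusted p = 0.0080), and Cd28, the main costimulatory receptor, was 208 and 141 CPM in WT and 316 and 313 CPM in Il1a-/- (0.89, SE 0.20, adjusted p = 0.0462).

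All 30 transcription factors on the list were tested, 6 were higher and 3 lower in Il1a-/- (median 0.47). The factors raised were Irf4, which partners with BATF downstream of the T cell receptor (log2 difference 1.59), Stat3, the transducer of IL-21 and IL-10 signals (1.10), Bcl6, the factor of follicular helper T cells (1.01), Prdm1, which encodes the effector factor Blimp-1 (0.88), and, named to complete the count, Egr1 (0.87) and Batf (0.98). Egr2, which restrains activated T cells (-1.44), Jun, a subunit of AP-1 (-1.16), and Ikzf2, which encodes Helios (-0.94), were lower. Adjusted p-values ran from 0.00623 for Irf4 to 0.0462 for Batf. Of 10 RNA-binding proteins that act on cytokine mRNA, all were tested and 2 were higher, Zc3h12d (0.92, adjusted p = 0.0293), of the Regnase family that degrades cytokine mRNA, and Arid5a (0.81, adjusted p = 0.0353), which stabilises some of them, with a median of 0.39.

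The same lists were read in Cd4-gated cells, the gate in which Il10 rose, and the genes below were chosen after their values were seen. Without WT replicate 1, edgeR called 0 of 7803 genes in this gate (1045 at an unadjusted p under 0.05), so that none of the calls below was kept. Of the 9 receptors and costimulators tested, 5 were higher in Il1a-/- and 0 lower. These were Icos (log2 difference 1.48), Cd28 (0.96), both chains of the IL-18 receptor, Il18r1 and Il18rap (51.1 and 59.5 CPM in WT, 202 and 134 CPM in Il1a-/-), and Il12rb2, the inducible chain of the IL-12 receptor, which went from 1.04 and 5.12 CPM in WT to 39.1 and 18.8 CPM in Il1a-/- (2.68, SE 0.66, adjusted p = 0.0313). IL-12 and IL-18 are the classical inducers of Ifng. Of 28 transcription factors tested there, 7 were higher and 0 lower, led by Tbx21, which encodes T-bet, the factor of interferon gamma-producing T helper cells, at 15.6 and 24.3 CPM in WT and 84.7 and 86.4 CPM in Il1a-/- (2.05, SE 0.32, adjusted p = 0.0011). Stat4, the transducer of IL-12, was next (1.55). The other 5 were Egr1, Irf4, Runx3, Batf and Stat3. DESeq2 called 3 of these 7 (Tbx21, Stat4 and Egr1), and of the 5 receptors and costimulators above it called 4, without Il12rb2. Among 11 receptors of the members 3 were higher, Il21r (1.69), Il2rb (1.29) and Ifngr1 (1.15), and 0 lower. Of 5 partners and relatives of the members tested, Ltb was lower (-0.92, adjusted p = 0.0194) and 0 were higher. Of 10 RNA-binding proteins Arid5a was higher (1.10, adjusted p = 0.0278), which DESeq2 did not call, and 0 were lower. Ifng itself in this gate was at 49.0 and 250 CPM in WT and 176 and 151 CPM in Il1a-/-, as given above, and did not pass. The mixture of cells in this gate differed too. Cluster 1, led by Ccl5, Cd8a, Pdcd1 and Lag3, was 0% and 0.339% of the gate in WT and 17.5% and 7.5% in Il1a-/-. Cluster 7, whose leading genes include Foxp3, was 14.5% and 10.5% against 5.26% and 4.29%. Cluster 5 was 50.4% and 53.6% against 29.8% and 59.3%, where the groups overlapped. The part of these shares in the calls in this gate was not tested.

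In CD8-gated cells few genes of the lists passed. Of 10 receptors and costimulators tested, Icos was higher in Il1a-/- (log2 difference 2.48, adjusted p = 0.0063), and both chains of the IL-6 receptor, Il6ra (-2.34, adjusted p = 0.0322) and Il6st (-1.66, adjusted p = 0.0457), were lower. Of 27 transcription factors Bhlhe40 was higher (1.29, adjusted p = 0.0284) and 0 were lower. Of 10 receptors of the members, 2 partners and 10 RNA-binding proteins, 0 were called by edgeR or by DESeq2. At an unadjusted p under 0.05 there were 4, 1 and 3, against 1196 of 8393 genes. Without WT replicate 1, and likewise without WT replicate 2, 0 genes of these lists passed in this gate.

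In NK/ILC1-gated cells, where Lta fell, Ltb was lower as well, at 1212 and 1260 CPM in WT and 415 and 378 CPM in Il1a-/- (log2 difference -1.67, SE 0.17, adjusted p = 4.93e-08), in a fit where 9.1% of genes were higher and 8.07% lower. The 5 of 9 receptors and costimulators that were higher were the same genes as in Cd4-gated cells, Icos, Il18rap, Cd28, Il12rb2 and Il18r1. Of 27 transcription factors 14 were higher and 2 lower, and of 10 RNA-binding proteins 5 were higher and 0 lower. Without WT replicate 2, 9 transcription factors were higher and 1 lower. Within this gate cluster 3 was a smaller share in Il1a-/- hosts, as given above. Cluster 2 was 34.2% and 36.4% of the gate in WT and 57.6% and 84.3% in Il1a-/-, and cluster 4 was 11.6% and 6.71% against 34.0% and 13.7%. These shares moved with the counts of genes called, and their part was not tested.

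Genes that respond to these cytokines were read in the cells that receive them. In phagocyte-like cells 15 of 16 interferon gamma targets were tested and none was called by edgeR. At an unadjusted p under 0.05 there were 5, against 1252 of 8946 genes, and DESeq2 called 1, Cd274. The median log2 difference of the targets was 0.64 against -0.02 over all genes tested. Nos2, the inducible nitric oxide synthase, was 0 and 9.70 CPM in WT and 80.0 and 168 CPM in Il1a-/- (log2 difference 4.53, SE 0.76, adjusted p = 0.0628). Cd274, which encodes the checkpoint ligand PD-L1, was 34.7 and 87.5 CPM in WT and 206 and 186 CPM in Il1a-/- (1.67, SE 0.40, adjusted p = 0.133). The clusters of this class were mixed differently in the hosts, as given above, and the part of that mixture was not tested. In fibroblast-like cells 10 of 12 targets of IL-17 and TNF were tested, and 0 were called by edgeR or DESeq2, in a fit where 0% of 9965 genes passed. At an unadjusted p under 0.05 there were 2, Cxcl5, a neutrophil chemokine (-2.89), and Lcn2, an iron-binding secreted protein (-2.41), both with an adjusted p of 0.848. Over all genes 488 of 9965 had an unadjusted p under 0.05.

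The genes most like each member were named by the Pearson correlation of log2(CPM + 1), averaged over the 4 samples, across 14 cell classes and gates and 11334 genes. The points share libraries and, for the gates, cells of 1 class, so the values are descriptions. For Ifng they were Gm37387 (0.986), Gm29243 (0.965) and Fasl, the death ligand of cytotoxic cells (0.955). For Lta they were Cxcr6 (0.956), Pdcd1 (0.951) and Lat (0.933), and for Tnf Slfn1 (0.912), Cass4 (0.908) and Lilr4b (0.897). For Il10 they were Il1rl1, the receptor of IL-33 (0.936), A630023P12Rik (0.930) and Ccr3 (0.913). For Il2 they were Usp31 (0.906), H2-Q10 (0.885) and Clspn (0.871), and for Il17a Cd163l1 (0.897), Tcrg-C2 (0.810) and Trgv2 (0.799), transcripts of gamma-delta T cells. Il21, Il17f and Il22 had too few UMIs for this measure.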

How the data were processed

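Cells of 4 tumour samples, 2 from WT and 2 from Il1a-/- hosts, were profiled with the 10x 3' v3.1 kit. The authors deposited raw UMI counts per gene and barcode, empty droplets included, made with Cell Ranger 3.1.0 per the submitters' processing notes and the file headers. The features were 64591 genes of a combined human and mouse (mm10) reference. The 31053 mouse genes were used, and the human orthologs of the 9 cytokines had 0 UMIs.

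Cells were called at 500 UMIs, 250 genes and at most 20% mitochondrial UMIs, tested against free RNA (barcodes of up to 100 UMIs) at a false discovery rate of 0.001, and cleared of Scrublet doublets at 0.8% per 1000 cells, which removed 83 to 128 cells per library. Cells were clustered with scanpy 1.11.5 and Leiden (2000 variable genes, 30 components, resolution 1.0). A cluster was named from marker lists, and the rule was extended after 2 T cell clusters stayed unnamed, with the first rule kept as an alternative. Cell names are rebuilt here and are not the authors'.

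UMIs were summed per sample and gate and tested with edgeR 4.0.16 (quasi-likelihood, TMM, filterByExpr, Benjamini-Hochberg adjustment over all genes of the fit, threshold 0.05). DESeq2 1.42.0 was an alternative. The scripts were tested on simulated counts with the means and library sizes of T/NK-like cells. Of the changed genes tested, 23% were recovered at a log2 difference of 1 and 90.8% at 2, with 4 false calls. Every simulated gene had the same dispersion, and only genes above a minimum count, which Il21 does not reach, were changed. These rates therefore do not describe cytokines with few UMIs or with UMIs held by a few cells. Intervals on sums are exact Poisson and on shares exact Clopper-Pearson, at 95%, and cover counting error only. The floor for a count of 0 is 3 UMIs.

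The labels say that tumours came as pairs on separate days but not that the replicate number marks a pair. Differences between replicates correlated across hosts at r = 0.22 over 10047 genes, so the block on the number is an alternative. Fibroblast-like cells differed by replicate number in both hosts. Cluster 9 held 291 and 56 cells in WT and 269 and 54 in Il1a-/-, and cluster 12 held 57 and 159 in WT and 15 and 200 in Il1a-/-. Whether the number marks a shared day was not tested, and the main fits do not use it. The cytokines, lists and tests were chosen with earlier results of these data known. Genes other than the 9 were named by a rule: those called in the T/NK-like fit, up to the 6 of smallest p per list, and, where a list had none called in its fit, its 2 of smallest p. Genes named outside it are said to be.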

Additional observations from a re-analysis of the deposited data

Results flagged for a closer look

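The host effect on Ifng differed between gates by a test of the difference itself. In Cd4-gated minus CD8-gated cells it was 1.69 on the log2 scale (edgeR adjusted p = 0.0018). Ifng was 60.1 and 862 CPM in WT and 116 and 139 CPM in Il1a-/- CD8-gated cells. The 16 CD8-gated cells of WT replicate 2 with at least 10 Ifng UMIs moved with this result, and without that library the difference was 0.63 (adjusted p = 0.842).

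Tnf was found in cells outside the named classes. Unnamed cluster 16, led by Gata2, Ms4a2 and Cpa3, had 544 CPM of Tnf over both Il1a-/- samples, with a lower counting bound of 345, against 75.9 CPM over both WT samples, with an upper bound of 136. This rests on 1 and 10 UMIs in 76 and 22 WT cells and on 7 and 16 UMIs in 8 and 30 Il1a-/- cells, and the samples gave 10.3, 210, 1233 and 437 CPM in the same order. Single cells carried much of it: 10 of the 16 UMIs of Il1a-/- replicate 2 and 7 of the 10 of WT replicate 2 lay in 1 cell each. Over all unnamed cells, leaving out each sample's top cell took Tnf from 236 to 88.6 CPM in Il1a-/- replicate 2, from 408 to 233 CPM in Il1a-/- replicate 1 and from 29.7 to 8.91 CPM in WT replicate 2. The difference between hosts was not tested.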

How the results depend on the processing

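Over 30 results on single cytokines and 414 alternative values, 355 kept their direction and side of the threshold, 22 passed it anew, 15 lost it and 22 changed sign. The count of 1 cytokine called in T/NK-like cells was 0 with DESeq2, 3 with no filter on low counts, 2 without cycling cells, 0 with cells thinned to 1000 UMIs, and 0 to 1 with a sample left out (0 without WT replicate 1 or WT replicate 2). The count of 3 in the gates was 0 with DESeq2, 8 with no filter, 5 with the replicate number as a block, 5 without cycling cells, 0 with gates on all called cells, and 1 to 5 with a sample left out (1 without WT replicate 1, 5 without Il1a-/- replicate 2). The block added Lta in Cd4-gated and Ifng in gamma-delta-gated cells, turned Il10 in Foxp3-gated cells to 0.10, and changed no other call. In phagocyte-like cells the count of 0 became 1 (Tnf) with no filter. The count of 1 difference between gates was 2 with no filter, 0 with gates on all called cells and 1 to 3 with a sample left out (2 without WT replicate 1, 3 without Il1a-/- replicate 2).

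The difference in the share of CD8-gated cells, 25.6 percentage points, was 21.2 with gates at 2 UMIs and 30.9 in cells with at least 1000 UMIs. With gates at 2 UMIs it was -3.61 in place of -6.33 for Foxp3-gated and -17.7 in place of -15.0 for NK/ILC1-gated cells.

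Signs turned in the following cases. Thinned, Ifng in T/NK-like cells was 0.21 and Il17a 0.051. With gates at 2 UMIs, gamma-delta-gated cells had Ifng at 0.59 and Il17a at -0.31, and Tnf in Cd4-gated minus CD8-gated cells was 0.054. In cells with at least 1000 UMIs Ifng in Cd4-gated cells was -0.019. Tnf in Foxp3-gated cells was 0.028 in those cells, 0.0056 with more doublets removed, 0.34 without cycling cells and 0.079 with the gate on all called cells, and Il10 there was 0.28 without cycling cells. With each sample left out in turn, log2 differences ran from -0.89 to 0.73 for Ifng in T/NK-like cells, -2.81 to 1.02 in CD8-gated and -0.66 to 1.69 in Cd4-gated cells. They ran from -0.64 to 0.62 for Tnf, -1.80 to 0.10 for Lta and -2.97 to 0.24 for Il17f in Cd4-gated cells, from -7.19 to 0.36 for Tnf and -0.72 to 0.44 for Il10 in Foxp3-gated cells, and from -0.71 to 1.23 for Tnf in gamma-delta-gated cells. The difference between gates ran from -1.40 to 2.68 for Ifng (NK/ILC1-gated minus CD8-gated), and for Cd4-gated minus CD8-gated cells from -0.041 to 0.94 for Lta and -1.32 to 0.094 for Tnf. The cause was not tested in any of these. DESeq2 gave no adjusted p for Lta in gamma-delta-gated or NK/ILC1-gated cells. The shallowest library, Il1a-/- replicate 1, sets the widest counting limits.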
